A study of Mus musculus with 18 samples.

Results

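The RNA of 10 genes of the smooth muscle contractile apparatus was followed in mouse fibroblasts of 3 organs, in culture and after transplantation under the kidney capsule. The genes were *Acta2*, *Actg2*, *Tagln*, *Cnn1*, *Myh11*, *Myl9*, *Tpm1*, *Tpm2*, *Lmod1* and *Des*. They were chosen as a list of symbols and matched to 10 of the 38924 Ensembl genes of the count table, and all 10 passed the filter on low counts that left 16577 genes for testing. Fibroblasts of heart, kidney and tail were taken from male Rosa mT/mG mice on a C57BL/6 background, aged 10 weeks, and were grown for 10 days. This reporter strain labels its cells with membrane TdTomato, and no Cre was named for this experiment. Between 400000 and 500000 cells on a piece of gelatin foam were then placed beneath the capsule of a kidney in syngeneic C57bl6/j recipients aged 10 to 11 weeks. After 3 days, CD45-;TdTomato+ cells were sorted from the recipient kidneys and gave the HFs, KFs and TFs libraries (heart, kidney and tail). The leftover cells were replated at 50000 cells in a well and gave the cultured HFc, KFc and TFc libraries. Each group had 3 libraries, and the sources used here do not say that the cultured cells were sorted again, so transplantation and the sort cannot be told apart in these comparisons.

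Some of these genes, *Acta2* first, are markers of the myofibroblast, a fibroblast that builds contractile stress fibres in a wound or on a stiff culture dish. The study counts *Acta2*, *Tagln* and *Myl9* among its myofibroblast genes, and the list as a whole is not a measure of that state. Smooth muscle alpha-actin and gamma-actin form the thin filaments, smooth muscle myosin pulls on them, and calponin, transgelin, tropomyosins and leiomodin bind and shape them. Many of these genes are read out by serum response factor (SRF), which binds a DNA element called the CArG box and is helped by the coactivators myocardin and the myocardin-related factors. Desmin, an intermediate filament protein of muscle cells, is also found in mesangial cells and pericytes of the kidney.

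Because SRF and its coactivators are among the genes described below, the 250 bases before the RefSeq transcription start were searched for the CArG box in the members with an entry in the promoter table used (RefSeq, GRCm38.p6), which were *Acta2*, *Cnn1*, *Myl9*, *Tpm1*, *Tpm2*, *Lmod1* and *Des*. The element reads alike on both strands, so 1 search covers both. It was present without a deviation before 1 of these 7 starts, that of *Myl9*, and without or with 1 deviating base before 4 of 7. Over all 32851 start sites in the table, of 27025 genes, the shares were 1.47% and 18.6%. The stretches that hold the matches are given here in the direction of the gene, with the matches in capitals.
Acta2, chr19:34255438-34255467, minus strand: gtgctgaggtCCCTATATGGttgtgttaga
Acta2, chr19:34255388-34255417, minus strand: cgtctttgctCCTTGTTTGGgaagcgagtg
Myl9, chr2:156775273-156775404, plus strand: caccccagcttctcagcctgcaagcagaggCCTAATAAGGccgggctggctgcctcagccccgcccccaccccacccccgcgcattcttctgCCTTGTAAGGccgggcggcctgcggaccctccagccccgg
Tpm1, chr9:67049415-67049444, minus strand: gctcgggtccCCATATATAGtcatatccac
Tpm1, chr9:67049274-67049303, minus strand: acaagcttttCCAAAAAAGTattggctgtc
Lmod1, chr1:135324594-135324688, plus strand: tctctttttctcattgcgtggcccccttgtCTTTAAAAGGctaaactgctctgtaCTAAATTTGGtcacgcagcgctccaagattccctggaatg
The *Acta2* matches lay 84 and 34 bases before the RefSeq start, within the first exon of a longer GENCODE transcript. In *Myl9* the exact match began 161 bases before the start and the other 99 bases before it. In *Lmod1* the matches began at 189 and 164 bases, and in *Tpm1* at 221 and 80 bases before the start. The *Tpm1* match at 80 bases also lay within a GENCODE exon. The windows of *Cnn1*, *Tpm2* and *Des* held no match of this kind. A match describes letters only, and binding was not measured.

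Library totals ran from 17927838 to 32245168 counts. Detection was set at more than 3 counts, which is between 0.089 and 0.18 CPM (counts scaled by library size and TMM factor, the unit of all levels below), and this floor covers counting error only. Every member was detected in all 18 libraries, the lowest value being 17 counts of *Myh11* in HFs replicate 1. The study calls its replicates biological, but the sources used here do not say whether those of a group came from separate donors or cultures, so p-values measure the spread between these libraries. Cultured replicates were close to each other, with a chi-square per degree of freedom between 4.87 and 7.97 for a pair of libraries. In transplanted pairs it was 12.5 to 286, where counting noise alone gives about 1. The top values, 285.6 and 286.2, were those of KFs replicate 3 with KFs replicates 1 and 2. The highest value of any other pair was 99.1. KFs replicate 3 stood apart and went against the stated sex of the donors. Its deposited library name, Kidney-Fibros, also departed from the naming pattern of the other libraries. *Xist* was at 1491 CPM there and at 0.404 CPM or less in the other 17 libraries, while 4 Y-linked genes summed to 0.722 CPM there and to 175 or more elsewhere, although male donors were stated. The main results that rest on this library are therefore given with and without it.

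Markers of other cell types moved with the groups as well. The summed level of 7 fibroblast markers lay between 11847 and 15610 CPM in cultured libraries, between 30535 and 122484 CPM in HFs, TFs and the other KFs libraries, and at 17661 CPM in KFs replicate 3. Nearly all of this sum was *Col1a1*, *Col1a2* and *Col3a1*. Of the 7, only *Thy1* was lower in HFs than in HFc (24.9 to 44.5 against 122.6 to 130.4 CPM). It alone was also lower in TFs than in TFc (123.2 to 194.6 against 232.2 to 246.6 CPM), and its KFs and KFc ranges overlapped. The 7 proximal tubule markers summed to between 13.9 and 102 CPM in culture and to between 49.9 and 1048 CPM after transplantation, with the highest sum in HFs replicate 2. The highest cultured sums were those of KFc and were mostly *Lrp2*, at 92.0 to 99.2 CPM there. *Kap* and *Slc27a2* were at 0 in every cultured library. In every transplanted library, KFs included, *Kap* was at 1.2 CPM or more and *Slc27a2* at 3.49 CPM or more. Epithelial markers reached 128 CPM in KFs replicate 3 and at most 24.6 CPM elsewhere. Of the pericyte and mural cell markers, *Higd1b* was at 0 in every library, *Kcnj8* was at or under the floor in 11 of 18, and the sum of all 7, mostly *Pdgfrb* and *Notch3*, was between 381 and 580.0 CPM in culture and between 252 and 740.0 CPM after transplantation. Immune markers, 6 in all with *Cd3e* at or under the floor in every library, were lower in transplanted than in cultured cells of kidney (at most 117 CPM in KFs, between 359 and 374 CPM in KFc) and tail (between 32.4 and 38.4 CPM in TFs, between 159 and 187 CPM in TFc), and lay between 73.2 and 135 CPM in HFc and HFs. Endothelial markers summed to between 35 and 43 CPM in culture and to between 25 and 67 CPM after transplantation. Cardiomyocyte markers summed to between 92.8 and 107 CPM in HFc, nearly all of it *Tnnt2*, with *Myh6* at 0 there. The part of these differences in the results below was not tested. In bulk RNA, fewer cells with a transcript and less of it in each cell cannot be told apart.

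Most of the contractile genes were lower after transplantation than in culture, in cells of every organ. In the heart, 9 of 10 members fell and *Des* rose, in the kidney all 10 fell, and in the tail 8 fell, *Des* rose and *Tpm1* did not pass the test. Calls were made with edgeR (quasi-likelihood test) at a p below 0.05 after Benjamini-Hochberg adjustment. Of all genes tested, 28.4% were called lower and 28.0% higher in HFs against HFc, 22.7% lower in KFs against KFc, and 20.2% lower and 18.6% higher in TFs against TFc. The median log2 fold change over the 10 members was -2.04 in heart, -2.17 in kidney and -2.55 in tail cells, beside 0.05, 0.09 and 0.00 over all genes tested. Transplanted and cultured libraries did not overlap for 10, 10 and 9 members in heart, kidney and tail cells, but such separation was common, with 67.3%, 51.2% and 60.4% of all genes tested. Without KFs replicate 3, all 10 still fell in kidney cells, with a median of -1.92.

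**Figure D1:**
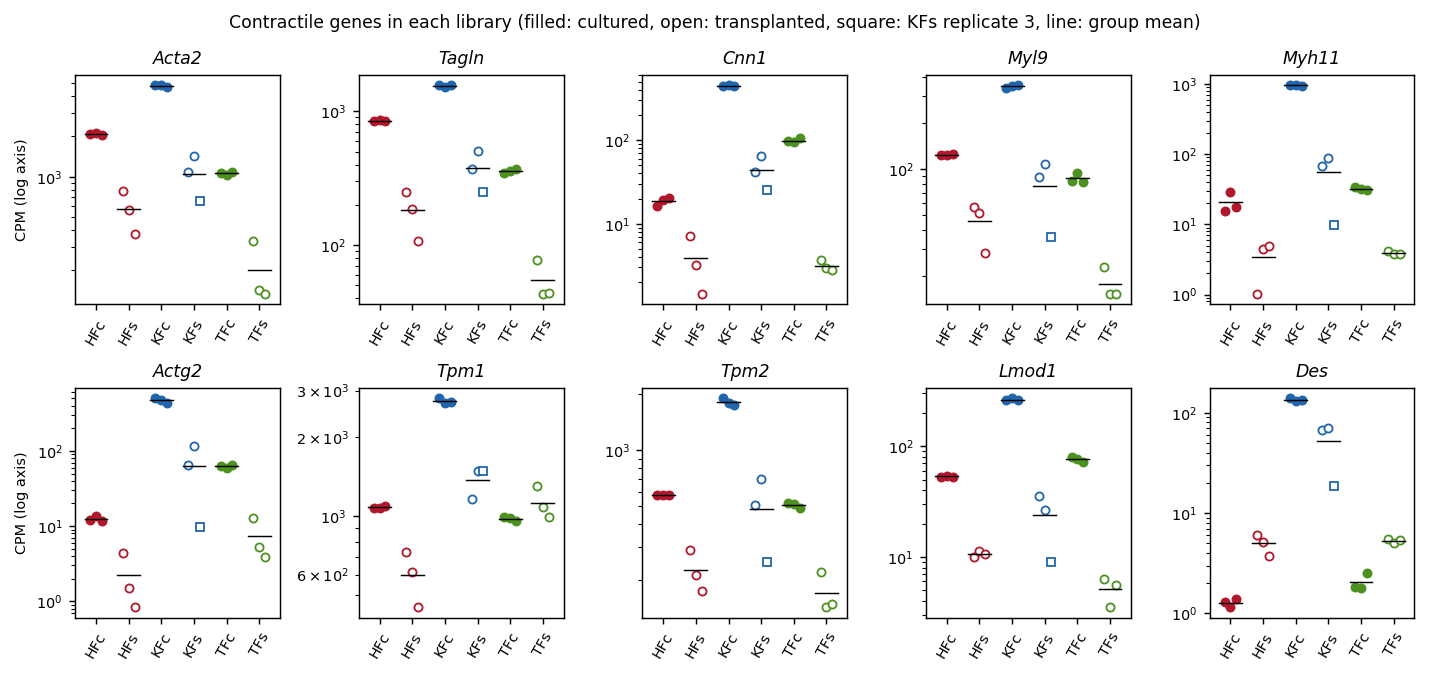
Level of each contractile gene in every library, in CPM on a log axis, with groups on the horizontal axis, filled points for cultured and open points for transplanted cells, a square for KFs replicate 3 and a line at each group mean. KFc is the highest group in all 10 panels, and *Des* is the only panel in which HFs and TFs lie above HFc and TFc without overlap.

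*Acta2* (ENSMUSG00000035783, chr19:34241090-34255590, minus strand) encodes smooth muscle alpha-actin, the usual marker of myofibroblasts. Its level was 2079, 2103 and 2035 CPM in the HFc libraries and 782, 565 and 376 CPM in HFs. It was 4825, 4838 and 4705 CPM in KFc and 1093, 1416 and 654 CPM in KFs, the last value being that of replicate 3. In the tail it was 1068, 1038 and 1089 CPM in TFc and 333, 142 and 133 CPM in TFs. The transplanted libraries lay below the cultured ones of the same organ in every case. By edgeR, *Acta2* fell by 1.85 ± 0.33 on the log2 scale (SE) in heart cells (3.61-fold, adjusted p = 0.00024), by 2.18 ± 0.34 in kidney cells (4.54-fold, adjusted p = 8.33e-05) and by 2.39 ± 0.34 in tail cells (5.26-fold, adjusted p = 6.62e-05). Without KFs replicate 3, the fall in kidney cells was 3.93-fold. Per kilobase of annotated exon, *Acta2* was the most abundant member in all groups except TFs, where *Tpm1* was higher. It stood at 2181 CPM per kilobase in KFc, rank 11 of 16301 annotated genes tested, and at 92.3 in TFs, rank 300.

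*Actg2* (ENSMUSG00000059430, chr6:83512905-83536265, minus strand) encodes the gamma-actin of visceral smooth muscle. It was low in heart cells, with 12, 13.6 and 11.6 CPM in HFc and 4.45, 1.50 and 0.835 CPM in HFs. Kidney cells had 499, 478 and 437 CPM in KFc and 64.1, 116 and 9.74 CPM in KFs, and tail cells had 63.0, 59.3 and 65.7 CPM in TFc and 12.7, 5.32 and 3.90 CPM in TFs. The fall separated the libraries without overlap in each organ, and its spread after transplantation was wide, since the highest KFs library exceeded the lowest 11.9-fold. The log2 fold change was -2.56 ± 0.73 (SE, edgeR adjusted p = 0.00776) in heart, -2.89 ± 0.63 (adjusted p = 0.00134) in kidney and -3.11 ± 0.66 (adjusted p = 0.0017) in tail cells. Single libraries moved these *Actg2* values: the heart value was -3.37 without HFs replicate 1, the kidney value -2.43 without KFs replicate 3 and -3.72 without KFs replicate 2, and the tail value -3.77 without TFs replicate 1.

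*Tagln* (ENSMUSG00000032085, chr9:45929619-45936058, minus strand) encodes transgelin, or SM22-alpha, which binds and cross-links actin filaments. It stood at 850, 860.1 and 843 CPM in HFc and at 251, 186 and 108 CPM in HFs. It stood at 1573, 1520.3 and 1564 CPM in KFc and at 372, 503 and 249 CPM in KFs. In tail cells the values were 347, 357 and 372 CPM in TFc against 77.8, 43.1 and 43.9 CPM in TFs. *Tagln* followed *Acta2* more closely than any other gene across the libraries, with a Pearson r of 0.994 between the log2 CPM values of both over the 18 libraries. It fell 4.69-fold in heart (edgeR adjusted p = 1.17e-05), 4.15-fold in kidney (adjusted p = 3.46e-05) and 6.53-fold in tail cells (adjusted p = 5.8e-06), and 3.66-fold in kidney cells without KFs replicate 3. The gene overlaps *Pcsk7* on the opposite strand, which had between 456 and 1104 counts, and a stranded kit was used.

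*Cnn1* (ENSMUSG00000001349, chr9:22099216-22109630, plus strand) encodes calponin 1, which restrains actin-activated myosin in smooth muscle. The HFc libraries had 16.1, 19.1 and 20.6 CPM and the HFs libraries 7.09, 3.17 and 1.44 CPM. Levels were far higher in cultured kidney cells, at 448, 458 and 445 CPM, against 41.9, 64.6 and 25.3 CPM in KFs. TFc had 97.7, 94.4 and 105 CPM, and TFs had 3.64, 2.95 and 2.80 CPM. In all 3 organs the states were clearly separated, and the tail change was larger than that of any other member in any organ. *Cnn1* fell by 4.99 ± 0.42 on the log2 scale there, or 31.7-fold (edgeR adjusted p = 4.58e-07), beside 4.97-fold in heart (adjusted p = 0.000141) and 10.2-fold in kidney cells (adjusted p = 3.12e-06), where it was 8.71-fold without KFs replicate 3. In heart cells the log2 fold change of *Cnn1* was -2.31, and -2.97 without HFs replicate 1.

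*Myh11* (ENSMUSG00000018830, chr16:14194535-14291372, minus strand) encodes the smooth muscle myosin heavy chain, the motor of the apparatus and the member most restricted to smooth muscle. KFc held 956, 968 and 945 CPM, while HFc held 15.3, 28.8 and 17.8 CPM and TFc 33.8, 31.7 and 31.3 CPM. After transplantation the values were 67.4, 88.9 and 9.66 CPM in KFs, 1.02, 4.41 and 4.86 CPM in HFs and 4.23, 3.82 and 3.77 CPM in TFs. All transplanted libraries were below the cultured libraries of their organ. The fall was 5.83-fold in heart (edgeR adjusted p = 0.00195), 17.3-fold in kidney (adjusted p = 3.5e-05) and 8.20-fold in tail cells (adjusted p = 0.000968), and in kidney cells it was 12.6-fold without KFs replicate 3. *Myl9* (ENSMUSG00000067818, chr2:156775420-156781658, plus strand), the regulatory light chain whose phosphorylation switches contraction on, was less divided between organs. It had 123, 123 and 125 CPM in HFc against 56.4, 51.9 and 28.2 CPM in HFs. Kidney cells had 339, 353 and 356 CPM in culture and 88.7, 108 and 35.8 CPM after transfer, and tail cells had 84.0, 94.6 and 82.0 CPM and then 22.7, 15.2 and 15.2 CPM. The groups were again apart, with a 2.73-fold fall in heart (adjusted p = 0.000955), 4.51-fold in kidney (adjusted p = 4.28e-05) and 4.91-fold in tail cells (adjusted p = 5.59e-05), and a 3.66-fold fall of *Myl9* in kidney cells without KFs replicate 3.

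Tropomyosins lie along the actin filament and set its access for myosin. *Tpm1* (ENSMUSG00000032366, chr9:67022590-67049406, minus strand) makes muscle and non-muscle isoforms, which a count per gene does not separate. With all libraries, the change of *Tpm1* was the smallest of the 10 in each organ. Without KFs replicate 3, *Des* changed least in kidney cells (log2 fold change -1.01, against -1.09 for *Tpm1*). The levels of *Tpm1* were as follows. It was at 1075, 1074 and 1093 CPM in HFc and at 730.2, 615 and 451 CPM in HFs. In kidney cells it was at 2805, 2701 and 2717 CPM in KFc and at 1161, 1486 and 1482 CPM in KFs. In tail cells the ranges of the states met, with 992, 986 and 960.2 CPM in TFc and 1306, 1084 and 990 CPM in TFs. The fall was 1.81-fold in heart (edgeR adjusted p = 0.000188) and 1.99-fold in kidney cells (adjusted p = 6.55e-05), where it was 2.13-fold without KFs replicate 3. In tail cells the log2 fold change of 0.20 ± 0.15 did not pass the test (adjusted p = 0.301), and its approximate 95% interval ran from -0.09 to 0.49. *Tpm2* (ENSMUSG00000028464, chr4:43514711-43523765, minus strand) fell in all 3 organs, from 572, 573 and 571 CPM in HFc to 290.1, 214 and 175 CPM in HFs. It went from 1906, 1802 and 1746 CPM in KFc to 507, 697 and 249.7 CPM in KFs, and from 520.1, 515 and 492 CPM in TFc to 223, 143 and 149 CPM in TFs. No library of the transplanted groups reached the cultured range of its organ. The *Tpm2* falls were 2.53-fold (adjusted p = 0.000701), 3.75-fold (adjusted p = 4.93e-05) and 2.97-fold (adjusted p = 0.000402) in heart, kidney and tail cells, and 3.11-fold in kidney cells without KFs replicate 3.

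*Lmod1* (ENSMUSG00000048096, chr1:135324807-135368065, plus strand) encodes leiomodin 1, the smooth muscle nucleator of actin filaments. Its level was 53.1, 54.1 and 52.7 CPM in HFc and 9.92, 11.4 and 10.7 CPM in HFs, with little spread in either state. KFc had 262, 272 and 260.4 CPM and KFs 35.6, 26.6 and 9.06 CPM, and TFc had 79.4, 76.2 and 72.6 CPM against 6.37, 3.50 and 5.56 CPM in TFs. *Lmod1* was the member with the second largest fall in kidney and in tail cells. The falls were 5.00-fold in heart (edgeR adjusted p = 2.28e-05), 11.1-fold in kidney (adjusted p = 8.27e-07) and 14.8-fold in tail cells (adjusted p = 8.75e-07), and 8.77-fold in kidney cells without KFs replicate 3.

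*Des* (ENSMUSG00000026208, chr1:75360329-75368579, plus strand), which encodes desmin, was the member whose direction depended on the organ. In heart cells it went from 1.31, 1.15 and 1.38 CPM in HFc to 6.07, 5.16 and 3.72 CPM in HFs. In tail cells it went from 1.84, 1.81 and 2.50 CPM in TFc to 5.51, 5.04 and 5.43 CPM in TFs. In kidney cells it went the other way, from 139, 129.7 and 134 CPM in KFc to 67.1, 70.7 and 18.7 CPM in KFs. *Des* thus rose from a low level in heart and tail cells and fell from a far higher one in kidney cells, with no overlap of the states in any organ. The rise was 3.87-fold in heart (edgeR adjusted p = 0.000834) and 2.62-fold in tail cells (adjusted p = 0.00985), and the fall in kidney cells was 2.57-fold (adjusted p = 0.00245). Without KFs replicate 3 this fall was 2.01-fold (adjusted p = 1.02e-05), and with only the KFs and KFc libraries in the fit it no longer passed (adjusted p = 0.0648).

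**Figure D2:**
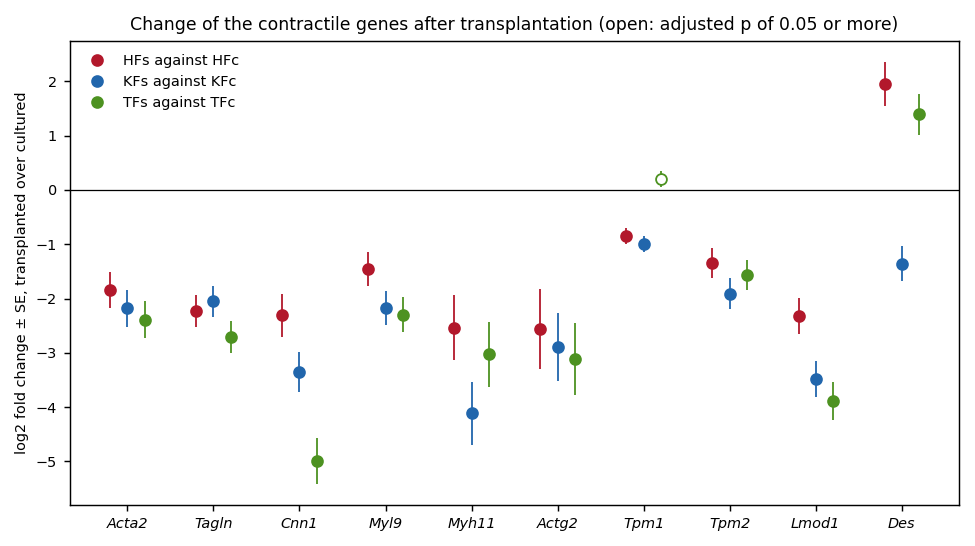
Log2 fold change of each gene in transplanted over cultured cells, with bars of 1 SE, for heart (red), kidney (blue) and tail (green). All filled points passed an adjusted p of 0.05, 27 of them below 0 and those of *Des* in heart and tail cells above 0, and the open point is *Tpm1* in tail cells at 0.20.

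Differences between organs in this change were tested as interactions. Heart and tail cells differed for *Cnn1* (2.67 ± 0.55 on the log2 scale, edgeR adjusted p = 0.00308, and 2.02 without HFs replicate 1), *Lmod1* (1.57 ± 0.46, adjusted p = 0.0216) and *Tpm1* (-1.05 ± 0.21, adjusted p = 0.00241), so that the first pair fell less and *Tpm1* fell more in the heart. Kidney and tail cells differed for *Des* (-2.75 ± 0.50, adjusted p = 0.00275) and *Tpm1* (-1.20 ± 0.21, adjusted p = 0.00221). Heart and kidney cells differed for *Des* (3.32 ± 0.52, adjusted p = 0.000376). These 3, 2 and 1 of 10 members stand beside 22.8%, 11.1% and 26.2% of all genes tested, called in either direction. With 10 members, these counts are not far from the shares of all genes. The 3 interactions share groups with each other and are not independent. The *Lmod1* difference was lost without TFs replicate 2 (1.35, adjusted p = 0.062). Without KFs replicate 3, *Des* still differed between kidney and tail cells (-2.38) and between heart and kidney cells (2.97). Then *Cnn1* (1.89, adjusted p = 0.0048) and *Lmod1* (0.78, adjusted p = 0.0127) also passed between kidney and tail cells, and *Lmod1* (0.83, adjusted p = 0.00411) and *Myh11* (1.15, adjusted p = 0.0407) between heart and kidney cells. In the same edgeR fit *Myl9* (0.88, adjusted p = 0.0206) also passed between heart and tail cells. For *Acta2*, no pair of organs passed, and the approximate 95% interval of the difference ran from -0.36 to 1.44 for heart against tail cells.

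In culture, kidney fibroblasts stood above the other organs for all 10 members. All 10 members were higher in KFc than in TFc, where 17.8% of all genes were called higher, and all 10 were lower in HFc than in KFc, where 14.0% of all genes were called lower. Both comparisons use the same KFc libraries. The gap was widest for *Des*, with 134 ± 4.88 CPM (SD, n = 3) in KFc, 1.28 ± 0.116 CPM in HFc and 2.05 ± 0.391 CPM in TFc, which is 105-fold over HFc and 65.9-fold over TFc. *Myh11* was next, 46.2-fold above HFc and 29.6-fold above TFc. *Actg2* was 37.9-fold and *Cnn1* 24.2-fold above HFc, and they were 7.52-fold and 4.55-fold above TFc. Against HFc, genes that fibroblasts express in quantity differed less, *Acta2* by 2.31-fold and *Tagln* by 1.82-fold. This did not hold against TFc, where *Acta2* differed by 4.5-fold and *Tagln* by 4.33-fold. There *Cnn1* was near these values and *Lmod1*, at 3.48-fold, below them. The *Tagln* difference of KFc and HFc (edgeR adjusted p = 0.0291) was lost when any of the 6 libraries compared was left out, with an adjusted p between 0.0614 and 0.0775. Its log2 fold change hardly moved in these fits, from -0.88 to -0.86 for HFc against KFc. With only HFc and KFc in the fit, all 10 members passed. Between heart and tail cells no single direction held in culture, and the counts were near the shares of all genes. *Acta2* and *Tagln* were 1.95-fold and 2.37-fold higher in HFc than in TFc, beside 20.9% of all genes called higher, while *Cnn1* and *Actg2* were 5.33-fold and 5.04-fold lower, beside 21.0% called lower. The other 6 members did not pass in this fit, although their HFc and TFc libraries did not overlap, as was so for 62.1% of all genes tested. With only HFc and TFc in the fit 9 members passed, and 8 passed without KFs replicate 3, all libraries otherwise sharing 1 estimate of the spread. The *Acta2* difference (adjusted p = 0.0275) was lost without any 1 of the 6 HFc and TFc libraries, with an adjusted p between 0.0552 and 0.0782. Its log2 fold change stayed between 0.92 and 0.97 in these fits.

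After transplantation, kidney cells were above the others for most members. In KFs, 9 members were higher than in TFs, beside 15.3% of all genes, and *Tpm1* was at 0.29 ± 0.15 on the log2 scale (edgeR adjusted p = 0.164). *Cnn1* and *Myh11* were each 14.1-fold above TFs, *Des* 9.79-fold and *Acta2* 5.2-fold, and without KFs replicate 3 these values were 17.1-fold, 19.9-fold, 12.9-fold and 6.22-fold. *Actg2* was 8.77-fold higher in KFs although its ranges overlapped with TFs through KFs replicate 3, and it was 12.6-fold higher without that library. Its log2 fold change of 3.13 was 2.36 without KFs replicate 2 and 3.78 without TFs replicate 1. With only KFs and TFs in the fit, *Actg2*, *Tpm2* and *Lmod1* no longer passed (edgeR adjusted p = 0.0895, 0.0694 and 0.0566). HFs were lower than KFs for 8 members, beside 19.0% of all genes called lower, with log2 fold changes of -4.91 for *Actg2*, -3.96 for *Myh11* and -3.40 for *Des*, and these were -5.44, -4.42 and -3.80 without KFs replicate 3. The *Actg2* value was -5.77 without HFs replicate 1 and -4.12 without KFs replicate 2. The libraries of 5 members did not overlap between HFs and KFs, beside 35.6% of all genes tested. *Acta2* (adjusted p = 0.0504) and *Myl9* (adjusted p = 0.064) did not pass there, and both passed without KFs replicate 3 (adjusted p = 0.00878 and 0.000637). Leaving out KFs replicate 2 ended the *Tagln* call (adjusted p = 0.0619) and leaving out KFs replicate 1 the *Lmod1* call (adjusted p = 0.0606). With only HFs and KFs in the fit, 3 members passed. Between HFs and TFs, *Acta2* (2.83-fold), *Tagln* (3.31-fold), *Myl9* (2.57-fold) and *Lmod1* (2.08-fold) were higher in HFs, beside 10.3% of all genes, and *Tpm1* was 1.88-fold lower, beside 12.7%. The *Lmod1* difference (adjusted p = 0.035) was lost without any of 5 of the 6 libraries, the exception being TFs replicate 1. *Actg2* in HFs against TFs (-1.77 ± 0.75, adjusted p = 0.105) passed without KFs replicate 3 (adjusted p = 0.00995). All 3 comparisons share groups with each other.

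**Figure D3:**
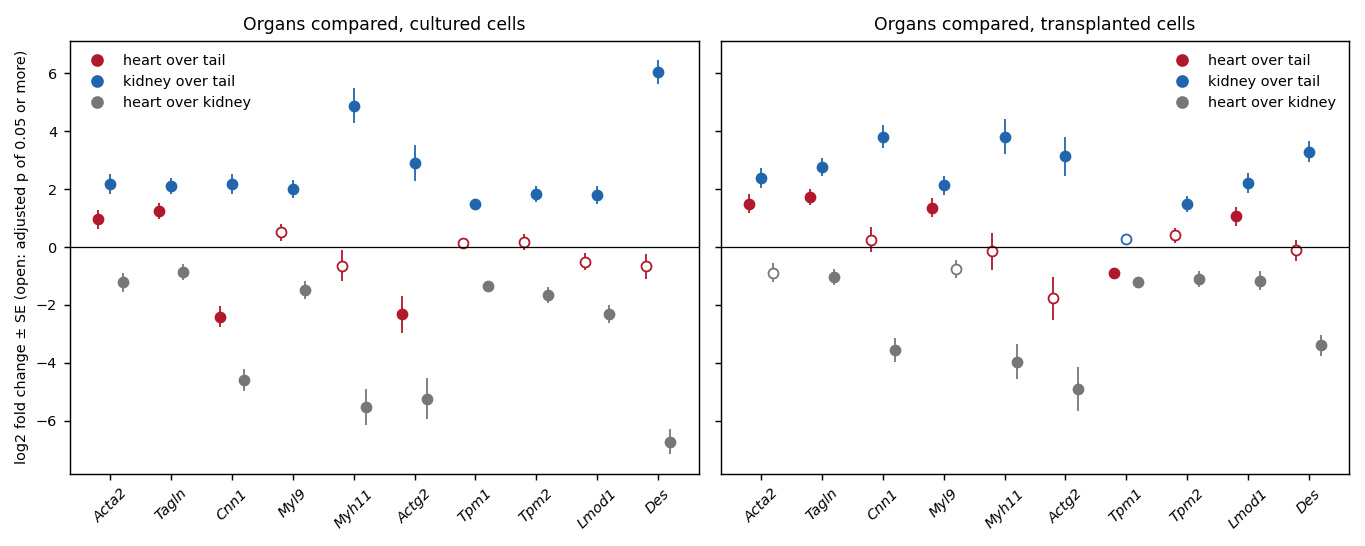
Log2 fold change between organs for each gene, with bars of 1 SE, in cultured cells (left) and transplanted cells (right), for heart over tail (red), kidney over tail (blue) and heart over kidney (grey). The blue points lie above 0 in both panels, between 1.48 and 6.04 in culture, and open points did not pass an adjusted p of 0.05.

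The groups could be ordered for each gene by mean level. KFc was the highest of the 6 groups for all 10 members. TFs was the lowest for *Acta2*, *Tagln*, *Cnn1*, *Myl9*, *Tpm2* and *Lmod1*, HFs was the lowest for *Myh11*, *Actg2* and *Tpm1*, and HFc was the lowest for *Des*. The span from the highest to the lowest group mean was 279-fold for *Myh11*, 208.5-fold for *Actg2*, 144-fold for *Cnn1*, 105-fold for *Des* and 51.5-fold for *Lmod1*. It was 28.2-fold for *Tagln*, 23.6-fold for *Acta2*, 19.7-fold for *Myl9*, 10.6-fold for *Tpm2* and 4.58-fold for *Tpm1*. HFs and TFs, which were neighbours in the order of 9 members, overlapped for *Cnn1*, *Myh11*, *Actg2*, *Tpm2* and *Des*, and none of these 5 differed between them in the test. The libraries of the other 5 members did not overlap there, beside 42.3% of all genes tested.

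The members also varied within groups. The coefficient of variation over the 3 libraries had a median of 2.80% over the 30 combinations of gene and cultured group and of 35.7% in transplanted groups. For HFs and TFs alone this median was 27.4%. In transplanted cells most members took their highest value in the same library. HFs replicate 1 was highest for 8 members, KFs replicate 2 for 9 and TFs replicate 1 for all 10. HFs replicate 3 was lowest for 8 members, while *Myh11* was highest there and lowest in HFs replicate 1. HFs replicate 2, the library with the most proximal tubule RNA, was neither highest nor lowest for 9 of the 10. KFs replicate 3 was the lowest KFs library for 9 members. Its level was 9.26-fold below the mean of the other KFs libraries for *Actg2*, 8.09-fold for *Myh11*, 3.68-fold for *Des* and 3.43-fold for *Lmod1*. It was 1.92-fold below for *Acta2* and 1.76-fold for *Tagln*, and its *Tpm1* level of 1482 CPM lay within the range of the others.

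**Figure D4:**
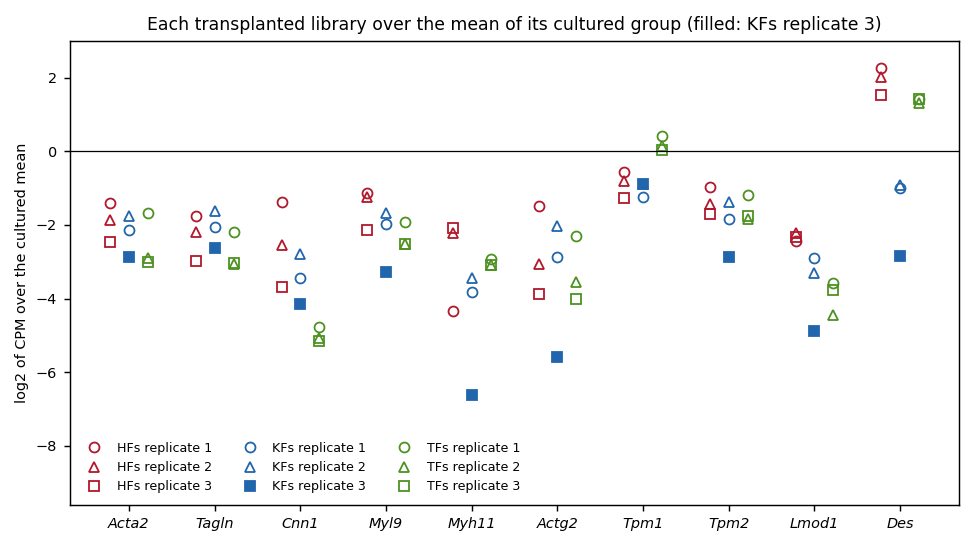
Level of each gene in every transplanted library over the mean of the cultured libraries of its organ, on a log2 scale, with heart in red, kidney in blue and tail in green, and a symbol for each replicate. KFs replicate 3 (filled squares) lies below the other kidney libraries for all genes except *Tpm1*.

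The known regulators of these genes changed as well. *Srf*, which encodes the CArG box factor, went from 57.5 ± 1.71 CPM (SD, n = 3) to 31.1 ± 3.93 CPM in heart cells (edgeR adjusted p = 7.73e-06), from 59.1 ± 1.57 to 46.5 ± 6.86 CPM in kidney cells (adjusted p = 0.0167) and from 42.7 ± 2.01 to 27.0 ± 2.82 CPM in tail cells (adjusted p = 0.000261). *Myocd*, encoding the muscle coactivator myocardin, was rare, at 2.19 CPM in HFc, 4.41 in KFc and 2.50 in TFc. It fell 3.02-fold, 3.01-fold and 6.26-fold after transplantation (adjusted p = 0.00296, 0.00256 and 0.000168). *Mrtfa*, encoding a coactivator that actin monomers hold in the cytoplasm, fell by 0.65 ± 0.10 on the log2 scale in heart, 1.00 ± 0.099 in kidney and 1.11 ± 0.10 in tail cells (adjusted p = 5.53e-05, 1.2e-06 and 8.41e-07). *Mrtfb* did not pass in any organ, with log2 fold changes of -0.02, 0.23 and -0.06. Thus 3 of the 4 regulators fell in each organ, beside 28.4%, 22.7% and 20.2% of all genes called lower in heart, kidney and tail cells. The same number fell in kidney cells without KFs replicate 3.

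Further genes of smooth muscle contraction did not move as a block. Of 20 such genes, all tested, 9 fell and 3 rose in heart, 15 fell and 0 rose in kidney and 10 fell and 2 rose in tail cells by edgeR at an adjusted p below 0.05. Of all genes tested, 28.4% fell and 28.0% rose in heart, 22.7% fell in kidney, and 20.2% fell and 18.6% rose in tail cells. The share that rose in kidney cells is not given here. Their median log2 fold change was -0.27, -1.58 and -0.29, beside 0.05, 0.09 and 0.00 over all genes, and 16 fell in kidney cells without KFs replicate 3. *Kcnmb1*, the beta subunit of the calcium-activated potassium channel of smooth muscle, fell 9.85-fold in heart and 5.79-fold in kidney cells, while in tail cells its mean was 0.434 CPM in TFc and 0.064 CPM in TFs, below the detection floor. *Itga8*, an integrin of mesangial and smooth muscle cells, fell 12.5-fold (log2 fold change -3.64, and -3.23 without KFs replicate 3) and *Ppp1r14a*, an inhibitor of myosin phosphatase, fell 8.20-fold in kidney cells. *Mylk*, the kinase that phosphorylates the light chain *Myl9*, rose from 11.5 ± 1.27 to 110 ± 11.3 CPM in heart cells (adjusted p = 1.34e-06). In kidney cells *Mylk* fell from 227 ± 6.63 to 88.0 ± 50.4 CPM (log2 fold change -1.37, adjusted p = 0.00198, and -1.79 without KFs replicate 3), and in tail cells it was at 76.3 ± 2.03 and 95.5 ± 10.1 CPM (adjusted p = 0.432). *Synm*, an intermediate filament protein that pairs with desmin, rose in tail cells by 1.73 ± 0.40 on the log2 scale (adjusted p = 0.00301).

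Genes of stress fibres and adhesions, which most cells use, mostly fell. Of 24, 21 fell and 0 rose in heart, 18 fell and 4 rose in kidney and 15 fell and 2 rose in tail cells, with medians of -0.91, -0.79 and -0.58. The shares of all genes that fell were 28.4%, 22.7% and 20.2% in heart, kidney and tail cells. The shares that rose were 28.0% in heart and 18.6% in tail cells, and that of kidney cells is not given here. The largest falls were those of *Actn1* in heart (-1.81) and of *Fhl1* in kidney (-3.36) and tail cells (-2.72), where *Actn1* encodes alpha-actinin and *Fhl1* a LIM protein of muscle. *Tagln2*, the non-muscle relative of *Tagln*, rose in kidney (1.28, edgeR adjusted p = 3.23e-05) and tail cells (1.07, adjusted p = 0.000245) and fell in heart cells (-0.79, adjusted p = 0.00134). A list of paralogs, mainly non-muscle forms, had 11 tested genes. Of these paralogs, 11 fell in heart, 6 fell and 0 rose in kidney, and 8 fell and 1 rose in tail cells, with medians of -1.10, -0.50 and -0.54. These medians lay nearer to 0 than those of the contractile members, and *Actg1*, a cytoplasmic actin, fell by 1.00, 0.56 and 1.00 on the log2 scale. Without KFs replicate 3, 8 of these paralogs fell in kidney cells. The striated muscle paralogs were mostly absent, since 7 of 15 passed the filter. Of these, 2 rose and 3 fell in heart, 2 rose and 2 fell in kidney and 2 rose and 2 fell in tail cells, and without KFs replicate 3 the kidney counts were 1 and 3. With 7 genes and all libraries, the counts that fell are not far from the shares of all genes given above. The same holds for those that rose in heart and tail cells. *Acta1*, the skeletal alpha-actin, fell in all 3 organs, from 37.4 ± 2.53 to 1.45 ± 1.16 CPM in kidney cells, and *Tnnt2*, cardiac troponin T, fell from 99.4 ± 7.28 to 3.02 ± 1.58 CPM in heart cells (adjusted p = 2.34e-05).

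The genes whose pattern was most like that of *Acta2*, apart from the members, were found by Pearson r of log2 CPM over the 18 libraries, which share 6 groups. They were *Flna* (0.985), *Actg1* (0.974), *Metrnl* (0.974), *Coq10b* (0.973) and *Atp2a2* (0.971). Among the members, r with *Acta2* was 0.994 for *Tagln*, 0.986 for *Myl9*, 0.953 for *Tpm2* and 0.922 for *Lmod1*, and it was lower for *Cnn1* (0.835), *Myh11* (0.82), *Actg2* (0.75), *Tpm1* (0.626) and *Des* (0.407). After the group means were subtracted, which leaves the variation within groups, the closest genes were *Csrp1* (0.98), *Trim59* (0.956), *Dazap1* (0.955), *Loxl2* (0.954) and *Fyb2* (0.94). Within groups *Tagln* (0.965), *Actg2* (0.901), *Tpm2* (0.894) and *Myl9* (0.861) followed *Acta2*, and *Myh11* did so least (0.206). Most of this variation comes from the 9 transplanted libraries.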

How the data were processed

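RNA of 18 libraries in 6 groups was analysed, with groups taken from the labels. The authors trimmed the 75-base single-end reads of stranded total RNA libraries for quality and assigned them with RSEM and Bowtie2, and they deposited expected counts per Ensembl gene, as whole numbers without normalization. The study's methods name GRCm38, whereas the submitters' processing notes name mm9. Symbols and positions were taken from GENCODE M21 (GRCm38), which held 37607 identifiers and lacked 1317, and no position bears on a count. RSEM shares reads between similar genes, but no 75-base window of a member's transcripts was found in another gene.

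Counts were tested in R 4.3.3 with edgeR 4.0.16 (filterByExpr, TMM, quasi-likelihood F test) on all libraries with 1 mean per group and 12 contrasts. P-values were adjusted by Benjamini-Hochberg over 16577 genes and called below 0.05. The SE is the size of the log2 fold change over the square root of F, and the approximate 95% intervals rest on it. The common biological coefficient of variation was 0.24. Correlations used log2 CPM with a prior count of 2. The fit was tested on simulated data.

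The members and the other gene lists were chosen with earlier results of these data known. All 10 members are named, with every regulator, up to 3 genes per other list, direction and transplant comparison by size of change among those called, and the 5 genes most like *Acta2* by each measure. The alternatives were DESeq2 1.42.0, its size factors, library size alone, no filter, a mean of at least 10 counts, a replicate block, only the groups compared, a log2 fold change beyond 1, an adjusted p below 0.01 and each replicate left out. Fits without KFs replicate 3 for comparisons that do not involve it, and for the lists, were chosen after seeing the data, namely its *Xist* and Y-linked counts. Tables and figures were made with Python 3.11.15, pandas 2.3.3, scipy 1.17.1 and matplotlib 3.10.9. Other experiments of the study were not analysed here. A gene that the naming rule also selects is not reported here.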

Additional observations from a re-analysis of the deposited data

Results flagged for a closer look

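The 6 values below were singled out because the change from culture to transplant differed between 2 organs by the interaction test of edgeR (quasi-likelihood, Benjamini-Hochberg adjustment). Between heart and tail cells the log2 difference of the changes was 2.67 for *Cnn1*, 1.57 for *Lmod1* and -1.05 for *Tpm1*. Between kidney and tail cells it was -1.20 for *Tpm1* and -2.75 for *Des*, and between heart and kidney cells it was 3.32 for *Des*. *Tpm1* fell in heart and kidney cells and was at 0.20 in tail cells, and *Des* rose in heart and tail cells and fell in kidney cells. The *Lmod1* value was 1.35 and did not pass without TFs replicate 2 (adjusted p = 0.062), while the other 5 passed under each alternative that was run on the fit. In singling out these values, groups of 3 libraries were not examined for single outlying values.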

How the results depend on the processing

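The call of a member was taken as an edgeR adjusted p below 0.05. Of 120 values (10 members in 12 comparisons) 81 were called. Of these, 68 kept their call under every alternative fit and 13 lost it under 1 or more. Of the uncalled values, 15 were called under 1 or more, and 0 of 1810 alternative values reversed a called direction. The stricter limits on log2 fold change and adjusted p are not in these counts. For example, a log2 fold change beyond 1 left 9 of 10 members in HFs against HFc and in KFs against KFc. An adjusted p below 0.01 left 8 of 10 in HFc against KFc. With only the groups compared in the fit, 9 members in place of 4 passed between HFc and TFc and 3 in place of 8 between HFs and KFs. Between the responses of heart and kidney cells, 2 members passed with DESeq2 and 2 with library size without TMM, in place of 1. Leaving out 1 library gave 3 to 8 members for HFc against TFc, with 8 when KFs replicate 3 was left out, 2 to 4 for the responses of kidney and tail cells and 1 to 3 for those of heart and kidney cells, where 4 and 3 came without KFs replicate 3. For HFs against KFs it gave 7 to 10. In the latter response comparison, 2 members passed without HFs replicate 3, KFs replicate 1 or KFs replicate 2. Same-numbered libraries did not deviate together (correlations between -0.139 and 0.079, against -0.165 to 0.15 for other numbers), so the numbers were not read as pairs. With the replicate block, *Acta2* between HFs and KFs passed (-0.90, adjusted p = 0.0296), which made 9 members there, and the other 11 counts were as without it (10, 10, 9, 4, 10, 10, 5, 9, 3, 2 and 1). Size factors of DESeq2 moved the median of all genes in heart cells from 0.047 to 0.108, and library size alone moved it in kidney cells from 0.093 to 0.148. Depth limits *Myh11* most, at 17 counts in HFs replicate 1.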
